A study of Homo sapiens with 10 samples.

Results

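The AP-1 factors JUN, JUNB, JUND, FOS, FOSB, FOSL1 and FOSL2, together with the related stress factor ATF3, were followed in 22RV1, a human prostate cancer line that grows without androgen. They are 8 of the 31015 genes that could be counted, chosen by name: the transcript identifier of each 3′ UTR interval was matched to a gene symbol, and the named genes were taken. The SLAM-seq data hold 5 groups of 2 libraries, and every cell received 4-thiouridine (4sU) for the last 10 min. Control cells had no drug according to the labels, and no solvent is named for them. The other groups were treated for 4 h with 20 µM SRPIN340, an inhibitor of the splicing kinase SRPK1, with 50 µM Endovion, which the study examined as a further SRPK1 inhibitor, with THZ531, an inhibitor of the transcription elongation kinase CDK12, or with THZ531 and Endovion together. The dose of THZ531 is 100 nM by the methods but 150 nM by the text of the series. The pairing of SRPIN340 with THZ531 was not analysed here. The model is 1 cell line, and no source used here says whether the 2 libraries of a group come from separate cultures, so p-values measure the spread between libraries, which may be technical.

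AP-1 is a dimer of bZIP proteins that binds DNA through paired basic regions held together by leucine zippers. JUN proteins pair with themselves, with FOS proteins or with ATF proteins, whereas FOS proteins need a JUN partner. Many of these genes are immediate early genes, transcribed within minutes of a growth factor or stress signal without new protein synthesis and coding for short-lived mRNAs, and in prostate tissue AP-1 has been studied for its interplay with the androgen receptor.

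In SLAM-seq, 4sU built into new RNA is read as a T>C conversion. A read with a conversion is called a T>C read here. Nascent RNA is the number of T>C reads of a gene, total RNA is the number of all its reads, and the labelled share is the first divided by the second. Levels are given in CPM, the count of a gene relative to the library's T>C reads or to all its reads, after scaling by trimmed mean of M values. Mapped reads per library ranged from 35517462 to 53592904, T>C reads on genes from 1011591 to 1576102, and the labelled share over all genes from 5.04% to 5.70%. A library without 4sU was not analysed here, so the share of T>C reads that arise without label is unknown. All 10 luminal prostate markers looked for were read in every library, and their summed total level was 1616 to 1647 CPM with THZ531 and 1526 to 1613 CPM with the combination against 1935 to 1939 CPM in control cells. Of 13 markers of other cell types, CD3E, VWF, COL1A2 and KRT5 were at 0 in all libraries, 8 had under 10 reads everywhere, and the list summed to between 25.5 and 31.0 CPM. Most of that sum was SYP, a neuroendocrine marker, at 20.8 to 25.6 CPM over the libraries. It lay above the luminal markers KLK3 (2.63 to 8.09 CPM) and TMPRSS2 (1.03 to 2.79 CPM). In such bulk RNA, fewer cells that express a gene and less of its RNA per cell cannot be told apart.

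Where the members are read matters for what the counts hold, so the counted intervals are given in hg38. JUN was counted on 1287 bases of its 3′ UTR (chr1:58780788-58782074, minus strand), JUNB on 500 bases (chr19:12792816-12793315, plus strand) and JUND on 681 bases (chr19:18279760-18280440, minus strand), each from a transcript with 1 exon. ATF3 was counted mainly on 1222 bases (chr1:212619556-212620777, plus strand) of a transcript with 4 exons. The FOS genes were counted at chr14:75281425-75282230 (FOS, 806 bases, plus strand), chr19:45473013-45475179 (FOSB, 2167 bases, plus strand), chr11:65892049-65892885 (FOSL1, 837 bases, minus strand) and chr2:28412449-28417312 (FOSL2, 4864 bases, plus strand). The JUNB interval overlaps HOOK2 and the FOSB intervals overlap ERCC1 on the other strand. Whether the counting used strand is not given in the sources used here, so reads of those partners could be among the counts.

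The promoters of the members differ in their response elements, and the matches are shown as a description. A link to the drug responses was not tested. The window ran from 250 bases before to 50 bases after the RefSeq start (GRCh38.p14), 7 of the 8 genes had an entry and ATF3 had 2, and the entry for FOSL1 was missing. The letters searched on both strands were TGACTCA (an element that AP-1 binds), TGACGTCA (the cyclic AMP element), TGACATCA (a variant of both) and the serum response element. TGACATCA was added to the search after the other letters were fixed. TATAAA was searched on the sense strand alone. Motif letters are in capitals and the rest in lower case, 5′ to 3′ on the strand of the gene.
JUN, chr1:58784096-58784125: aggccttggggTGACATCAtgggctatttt
ATF3, first promoter, chr1:212565273-212565302: cacctatgataTGACATCAtatggccactc
JUND, chr19:18281804-18281833: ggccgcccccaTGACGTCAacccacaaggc
FOSL2, chr2:28392851-28392880: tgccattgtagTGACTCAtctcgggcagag
JUNB, chr19:12791443-12791472: tgactagcgcggTATAAAggcgtgtggctc
FOS, chr14:75278783-75278812: taaaacgcttgtTATAAAagcagtggctgc
FOSB, chr19:45467954-45467983: gggtcccgggcaTATAAAtacaggctggcg
The JUN and ATF3 promoters shared the variant element, which 2.61% of all 35116 promoters hold. The element of JUND is held by 1.85% of promoters and that of FOSL2 by 4.95%. TATAAA, held by 7.33%, started 31 bases before the start of JUNB, 33 before FOS and 30 before FOSB. The second ATF3 promoter also held these letters, far upstream of its start at -230. No member promoter held the letters of the serum response element in this window, against 1.29% of all promoters.

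The 3′ UTRs were searched for ATTTA, the pentamer of AU-rich elements, which mark many immediate early mRNAs for rapid decay. FOS had 5 in 806 bases, a number that 6.11% of the 3751 counted intervals of like length (within 20%) reached or passed. FOS also held the longer form TTATTTATT, present in 4.13% of intervals of like length. FOSL2 held 9 pentamers and 1 nonamer in its long interval, JUN, FOSB and ATF3 held 3 pentamers each, JUNB 2, and JUND and FOSL1 1 each. Those of JUN were reached by 42% of intervals of like length and those of JUNB by 21.2%. The nonamers are shown with their flanks (hg38).
FOS: tgtttttaatTTATTTATTaagatggattc
FOSL2: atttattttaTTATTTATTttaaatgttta

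JUN, the most potent activator among the JUN proteins, rose with Endovion, with THZ531 and with both drugs. Nascent JUN stood at 72.1 and 60.2 CPM in the control libraries, 87.9 and 112 CPM with SRPIN340, 180.3 and 144 CPM with Endovion, 132 and 183 CPM with THZ531, and 258 and 138 CPM with the combination. Every treated library lay above both control libraries. The log2 fold change was 1.29 (SE 0.24) with Endovion, 1.24 (SE 0.24) with THZ531 and 1.58 (SE 0.24) with the combination, and edgeR's quasi-likelihood test gave Benjamini-Hochberg adjusted p-values of 0.00041, 0.00044 and 5.3e-06. With SRPIN340 the estimate was 0.59 (95% interval 0.10 to 1.08, adjusted p = 0.33). The order of the group means ran from control through SRPIN340, THZ531 and Endovion to the combination, and the libraries of the last 3 groups overlapped.

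The total RNA of JUN moved the same way. It was 42.3 and 29.5 CPM in control cells, 73.6 and 71.6 CPM with SRPIN340, 130.4 and 118 CPM with Endovion, 71.9 and 89.2 CPM with THZ531, and 151 and 88.6 CPM with the combination. The edgeR fit gave log2 fold changes of 1.79 (SE 0.26, adjusted p = 0.0055) with Endovion, 1.16 (SE 0.26, adjusted p = 0.0093) with THZ531 and 1.74 (SE 0.26, adjusted p = 0.0015) with the combination. The SRPIN340 libraries again lay above both control libraries, with a log2 fold change of 1.01 (SE 0.25) and an adjusted p of 0.081 (DESeq2 gave 0.00048). Without control replicate 2 the adjusted p of total JUN rose to 0.068 with Endovion and 0.084 with THZ531, and without THZ531 replicate 2 to 0.093. The nascent call with Endovion ended without Endovion replicate 1 (adjusted p = 0.052), whereas the combination stayed called when any 1 library was left out.

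Of the tested members, JUN was also the one whose response to both drugs was furthest from the sum of the single responses. The nascent log2 fold change with the combination was lower than that sum by an interaction of -0.95 (SE 0.33, 95% interval -1.62 to -0.28), with an unadjusted p of 0.0065 and an adjusted p of 0.34 in edgeR's quasi-likelihood test. For total RNA the interaction was -1.21 (SE 0.36, adjusted p = 0.27), and it was called by DESeq2 (adjusted p = 0.018) and by edgeR without the low-count filter (adjusted p = 2.4e-06). Without control replicate 1 edgeR called the interaction of 1 member, that of total JUNB (-1.07, adjusted p = 0.03; -0.67 with all libraries, adjusted p = 0.39). No interaction of any member passed in the reported edgeR fit, where 1 member in each measure, JUN, had an unadjusted p under 0.05, and where 0.302% of all genes were called in nascent RNA and 0.00681% in total RNA. Against Endovion alone the combination gave JUN a nascent log2 fold change of 0.29 (95% interval -0.17 to 0.75), and against THZ531 alone 0.35 (95% interval -0.11 to 0.81).

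JUNB, a JUN protein that activates transcription less strongly than JUN, rose where THZ531 was present. Nascent JUNB stood at 107 and 91.5 CPM in control cells, 143 and 90.8 CPM with SRPIN340, 71.4 and 99.1 CPM with Endovion, 213 and 246 CPM with THZ531, and 184 and 146 CPM with the combination. The 4 libraries with THZ531 were the highest of the 10, and the Endovion and SRPIN340 libraries overlapped the control libraries. In edgeR the log2 fold change was 1.20 (SE 0.22, adjusted p = 0.00015) with THZ531 and 0.73 (SE 0.22, adjusted p = 0.03) with the combination, against -0.24 (95% interval -0.70 to 0.23) with Endovion and 0.22 (95% interval -0.22 to 0.67) with SRPIN340. The combination exceeded Endovion alone by 0.96 (SE 0.23, adjusted p = 0.016). The combination call ended without control replicate 2 (adjusted p = 0.21) and without combination replicate 1 (adjusted p = 0.34), and the difference from Endovion ended without Endovion replicate 1 (adjusted p = 0.37) or combination replicate 1 (adjusted p = 0.38).

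The total RNA of JUNB was again highest in the 4 libraries with THZ531. It was 32.1 and 19.7 CPM in control cells, 32.2 and 35.1 CPM with SRPIN340, 29.23 and 29.97 CPM with Endovion, 60.3 and 88.2 CPM with THZ531, and 58.1 and 47.9 CPM with the combination. The edgeR estimates were 1.51 (SE 0.23, adjusted p = 0.00058) with THZ531 and 1.03 (SE 0.23, adjusted p = 0.0058) with the combination. The first was called whichever library was left out, and the second lost its call without combination replicate 1 (adjusted p = 0.066). Between the combination and THZ531 alone JUNB differed by -0.47 in nascent RNA (95% interval -0.91 to -0.04, adjusted p = 0.57) and by -0.48 in total RNA (unadjusted p = 0.049, adjusted p = 0.45), neither of which passed.

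**Figure D1:**
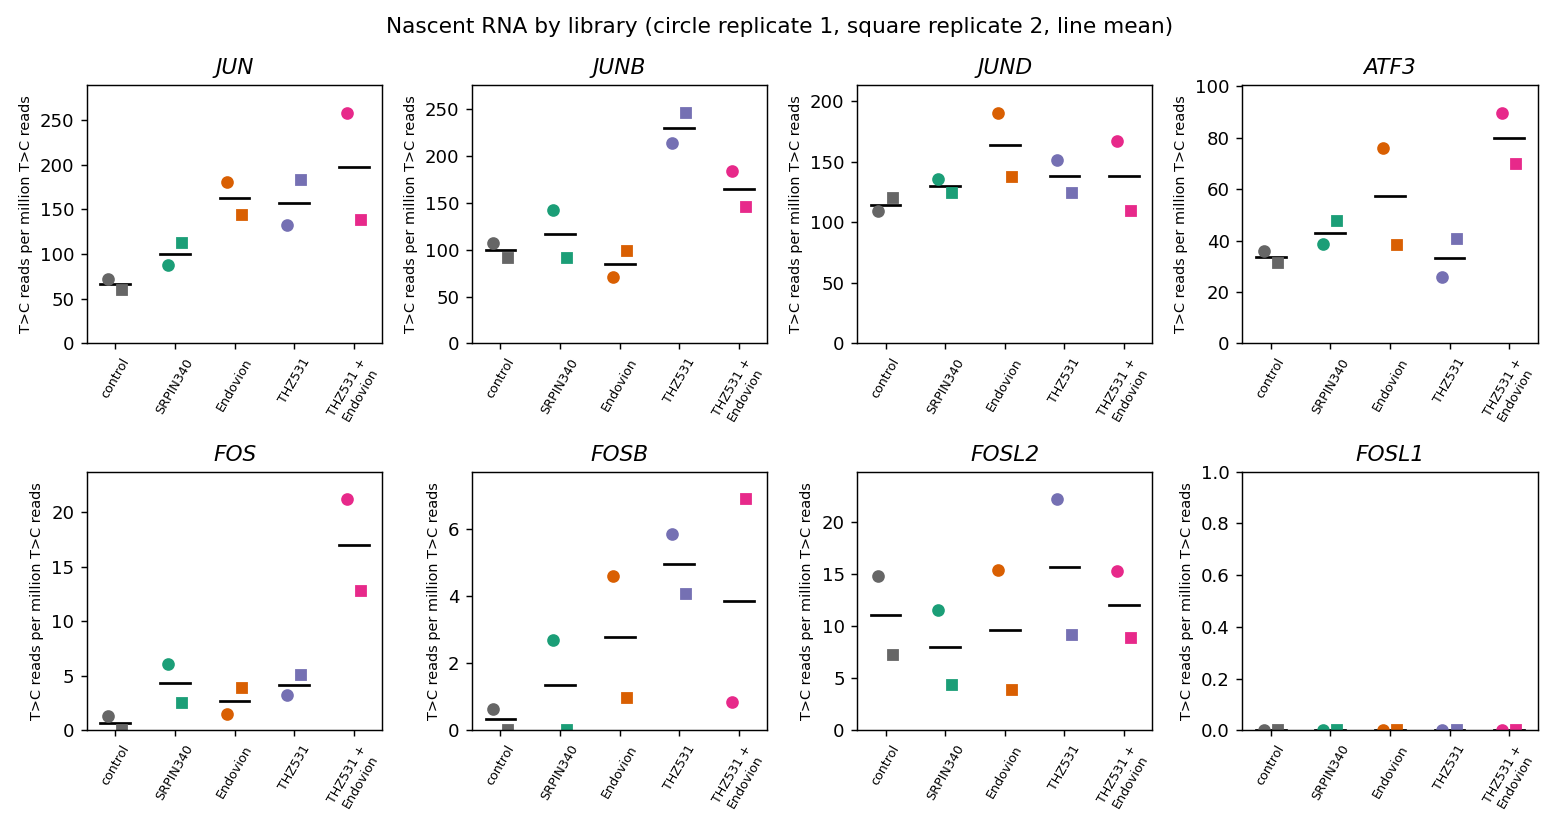
Nascent RNA of the 8 genes, in CPM of T>C reads (y axis, linear and separate for each gene), in the 10 libraries by group (x axis). Circles are replicate 1, squares replicate 2 and black lines group means. JUN lies above both control libraries in all 8 treated libraries, JUNB is highest in the 4 libraries with THZ531, and FOSL1 is at 0 throughout.

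ATF3 is a bZIP factor induced by many stresses that dimerizes with JUN proteins and can repress its own promoter. It was the only member whose total RNA edgeR called up in all 4 treatments. Total JUN and FOS also exceeded both control libraries in every treated library. JUN, with a larger SRPIN340 estimate (1.01), was not called there by edgeR. The total level of ATF3 was 19.1 and 13.5 CPM in control cells, 32.2 and 29.9 CPM with SRPIN340, 37.2 and 35.2 CPM with Endovion, 33.5 and 27.5 CPM with THZ531, and 65.8 and 45.8 CPM with the combination. All 8 treated libraries exceeded both control libraries, and both combination libraries exceeded all others. The log2 fold changes were 0.93 (SE 0.19, adjusted p = 0.031) with SRPIN340, 1.15 (SE 0.19, adjusted p = 0.0032) with Endovion, 0.90 (SE 0.19, adjusted p = 0.003) with THZ531 and 1.77 (SE 0.19, adjusted p = 3.5e-05) with the combination in edgeR. The last 3 were called whichever library was left out. The SRPIN340 call ended without control replicate 2, either SRPIN340 library or either Endovion library, with adjusted p-values between 0.056 and 0.37.

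The nascent RNA of ATF3 rose by the test with the combination alone. It was 36.0 and 31.3 CPM in control cells, 38.6 and 47.6 CPM with SRPIN340, 76.0 and 38.5 CPM with Endovion, 26.0 and 40.7 CPM with THZ531, and 89.8 and 69.8 CPM with the combination. The combination libraries lay above all other libraries but Endovion replicate 1, which lay between them. The edgeR estimate was 1.24 (SE 0.33, adjusted p = 0.011) with the combination, and this call ended without control replicate 2 (adjusted p = 0.097) or combination replicate 1 (adjusted p = 0.18). It was 0.77 (95% interval 0.10 to 1.45, adjusted p = 0.26) with Endovion, 0.35 (95% interval -0.33 to 1.03) with SRPIN340 and -0.05 (95% interval -0.76 to 0.66) with THZ531. Between the combination and THZ531 alone the difference was 1.29 (SE 0.34, adjusted p = 0.081) in nascent RNA and 0.87 (SE 0.19, adjusted p = 0.058) in total RNA. Against Endovion alone the difference in total RNA was 0.63 (SE 0.19, adjusted p = 0.053). None of these passed in edgeR. DESeq2 called both differences in total RNA (adjusted p = 0.0043 against THZ531 and 0.023 against Endovion), and so did edgeR without either control library (adjusted p between 0.021 and 0.024). Without control replicate 2 edgeR also called the difference from THZ531 in nascent RNA (adjusted p = 0.047).

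FOS, the classical immediate early partner of JUN, had few reads in these cells. It had 19 and 9 reads in all in the control libraries, 37 and 51 with SRPIN340, 55 and 28 with Endovion, 49 and 99 with THZ531, and 167 and 75 with the combination. Every treated library exceeded both control libraries, and the THZ531 and combination libraries overlapped. In edgeR the total RNA rose with THZ531, by a log2 fold change of 2.69 (SE 0.55, adjusted p = 0.0024), and with the combination, by 3.39 (SE 0.54, adjusted p = 0.00052). The values were 1.48 (SE 0.56, adjusted p = 0.17) with SRPIN340 and 1.71 (SE 0.56, adjusted p = 0.064; 0.024 in DESeq2) with Endovion. The T>C reads were 2 and 0 without drug, 9 and 4 with SRPIN340, 2 and 4 with Endovion, 5 and 5 with THZ531, and 25 and 13 with the combination. FOS passed the filter on low T>C counts only through the combination libraries, so its call there (adjusted p = 0.014) had to come from that group. That call ended without control replicate 2 (adjusted p = 0.15) or combination replicate 1 (adjusted p = 0.20). The pooled T>C reads gave ratios to the 2 of control cells of 5.91 with SRPIN340 (exact 95% interval 1.34 to 54.0) and 3.6 with Endovion (0.64 to 36.3). The ratios were 5.56 with THZ531 (1.19 to 52.2) and 24.2 with the combination (6.26 to 207). These intervals take reads as units and cover counting error only. That of the combination rests on the same reads as the call and lends it no further support.

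FOSB, a FOS protein with a similar early response, was read as rarely. It had 16 and 14 reads in control cells, 32 and 18 with SRPIN340, 27 and 21 with Endovion, 75 and 44 with THZ531, and 108 and 55 with the combination. The 4 libraries with THZ531 were the highest in reads. Its total RNA rose by 2.14 (SE 0.45, adjusted p = 0.0025) with THZ531 and by 2.71 (SE 0.45, adjusted p = 0.00049) with the combination on the log2 scale in edgeR, and was not called with SRPIN340 (0.59, adjusted p = 0.53) or Endovion (0.83, adjusted p = 0.28). For both FOS and FOSB the total calls with THZ531 and the combination held whichever library was left out. FOSB had between 0 and 9 T>C reads a library and did not pass the filter for nascent RNA. Of its 33 T>C reads, 17 lay among the 43 reads of a second interval, 1045 bases long, where 39.5% of reads were T>C reads against 4.36% in the main interval.

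The combination exceeded Endovion alone in the total RNA of 3 members, JUNB by 0.84 (SE 0.22, adjusted p = 0.04), FOS by 1.68 (SE 0.48, adjusted p = 0.043) and FOSB by 1.88 (SE 0.42, adjusted p = 0.011). These 3 calls were near the threshold. None of them held when either Endovion library or combination replicate 1 was left out, and those of JUNB and FOS also ended without either SRPIN340 library, whose removal changes only the shared spread and the genes tested. With the replicate number as a block, JUNB (adjusted p = 0.08) and FOS (adjusted p = 0.077) were no longer called, and ATF3 was (adjusted p = 0.024). JUNB was the one member called in nascent RNA, where 0.452% of all genes were called up, and in total RNA the share was 2.29%. No member was called between the combination and THZ531 alone by edgeR in either measure, where 0.141% and 0.327% of genes were called up. In that comparison 2 members had a positive change at an unadjusted p under 0.05 in each measure in edgeR. They were ATF3 and FOS in nascent RNA and ATF3 and JUN in total RNA. FOS entered the nascent test only through the combination libraries, so its change there is not read as a result. JUNB had a negative change at an unadjusted p under 0.05 in each measure.

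JUND, the JUN gene that most cell types express steadily, was not called in any comparison of the reported fit. Its nascent level was 109 and 119.6 CPM in control cells, 136 and 124 CPM with SRPIN340, 190.3 and 138 CPM with Endovion, 152 and 124 CPM with THZ531, and 167 and 109 CPM with the combination. The control and combination libraries overlapped, and all other treated libraries lay above the controls. The log2 fold changes against control lay between 0.18 and 0.52, the largest with Endovion (95% interval 0.08 to 0.96, edgeR adjusted p = 0.23). Total RNA ranged from 148 to 219 CPM over the libraries, with a largest estimate of 0.40 (95% interval 0.12 to 0.68, adjusted p = 0.059), also with Endovion. That value was called without the low-count filter (adjusted p = 0.034) and with the replicate number as a block (adjusted p = 0.026), which also called total JUND with the combination (adjusted p = 0.048).

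FOSL2, also known as FRA2, was not called either. Its T>C reads numbered 23 and 9 without drug, 17 and 7 with SRPIN340, 20 and 4 with Endovion, 34 and 9 with THZ531, and 18 and 9 with the combination. The libraries of every group overlapped those of every other. The nascent intervals were wide, from -1.89 to 0.90 with SRPIN340 to -0.82 to 1.86 with THZ531, so changes of about that size were not detectable at this depth. Total RNA, with 115 to 291 reads a library, gave estimates between -0.21 and 0.28. FOSL1, also known as FRA1, had 13 reads in all 10 libraries together and none was a T>C read, which allows a labelled share of up to 23.1%.

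**Figure D2:**
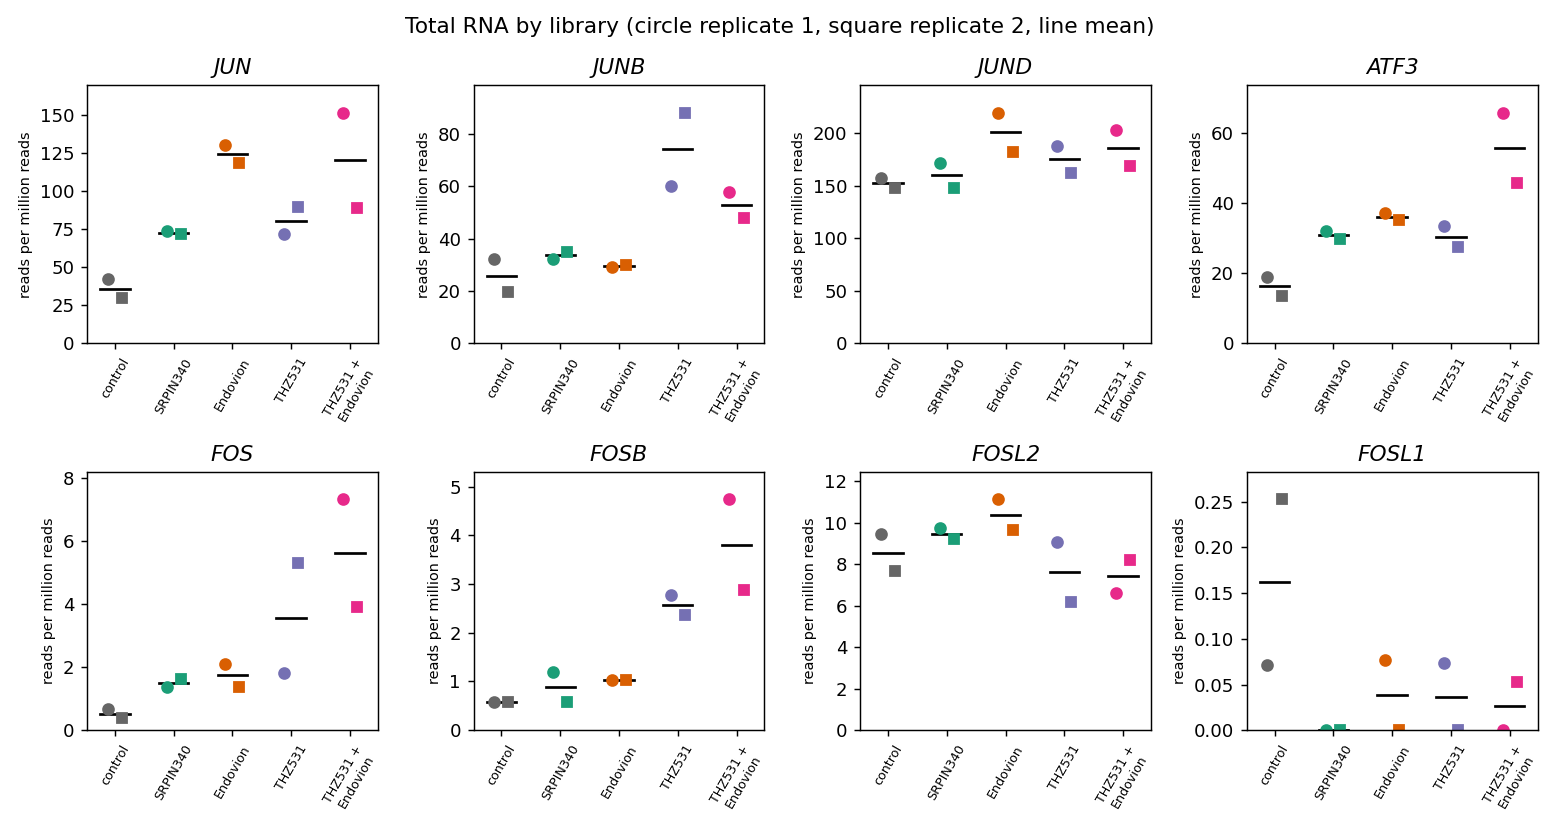
Total RNA of the 8 genes, in CPM of all reads (y axis, linear and separate for each gene), in the same 10 libraries, drawn as for nascent RNA. ATF3 and JUN lie above both control libraries in all 8 treated libraries, and FOSB is highest in reads in the libraries with THZ531.

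**Figure D3:**
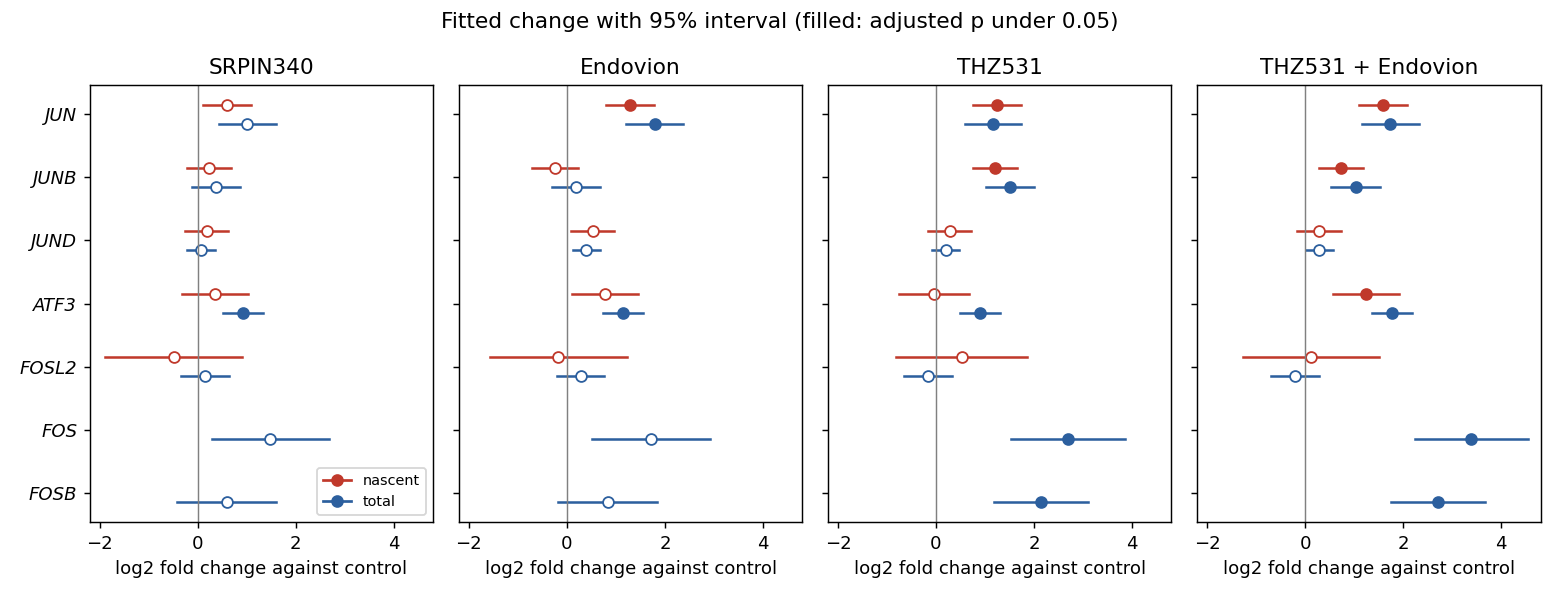
Fitted log2 fold change against control (x axis) of nascent RNA (red) and total RNA (blue) for 7 genes, 1 panel for each treatment, with 95% intervals and filled points where the adjusted p is under 0.05. Nascent FOS and FOSB are not drawn because of their few T>C reads. The filled points of JUN span 3 panels, those of JUNB the 2 panels with THZ531, and total ATF3 is filled in all 4.

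Counted together, 6 of the 8 genes passed the filter for nascent RNA and 7 that for total RNA. With SRPIN340 no member was called up in nascent RNA (1, JUN, at an unadjusted p under 0.05, and none by DESeq2), where 0.845% of all 9946 genes tested were. With Endovion it was JUN (background 2.04%), with THZ531 JUN and JUNB (3.86%), and with the combination JUN, JUNB and ATF3 (4.61%). FOS was called there too, but it entered the test only through the combination libraries and is not read against that share. In total RNA it was ATF3 with SRPIN340 (background 1.82% of 14689 genes), JUN and ATF3 with Endovion (8.9%), and JUN, JUNB, ATF3, FOS and FOSB with THZ531 and with the combination (16.6% in both). No member was called down in any of these. In a fit of the plain sum of all UTR intervals over all genes, JUN with the combination was the 1 nascent call left. JUN and JUNB have 1 interval each, so their own counts were the same in that fit and their estimates stayed at 1.29 for JUN with Endovion, 1.23 for JUN with THZ531 and 1.19 for JUNB with THZ531, with adjusted p-values of 0.11, 0.074 and 0.051. DESeq2 called 2 members in nascent RNA with the combination, JUN and ATF3. The median log2 fold change of the tested members in nascent RNA is given without FOS, which entered only through the combination libraries. It was 0.22, 0.52, 0.52 and 0.73 in the order SRPIN340, Endovion, THZ531 and combination. In total RNA the medians were 0.59, 0.83, 1.16 and 1.74 in that order. The medians of all genes in the 2 measures lay between -0.02 and 0.03. The 4 comparisons share the control libraries, so their calls are not independent, and JUN, JUNB and ATF3 were lower in control replicate 2 than in control replicate 1 in both measures.

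The labelled share is the percentage of a gene's reads with a conversion, which new RNA raises. It misses new reads without a conversion and is not corrected for the T content of the gene. In control cells it was 20.5% for JUNB, at percentile 97.0 of the genes tested, 11.1% for ATF3, 9.90% for JUN, 7.16% for FOSL2 and 4.03% for JUND, against a median gene of 5.19%. By percentile ATF3 stood at 86.2, JUN at 82.5 and JUND at 33.0. By library, JUN had shares of 9.44% and 10.7% in control cells, 6.60% and 7.94% with SRPIN340, 6.90% and 6.28% with Endovion, 10.4% and 10.8% with THZ531, and 8.84% and 8.27% with the combination. The shares of JUN were thus lower in the 6 libraries with SRPIN340 or Endovion than in the other 4. The log2 change of T>C against unconverted reads was -0.66 (95% interval -1.14 to -0.18) with Endovion, with an unadjusted p of 0.0093 and an adjusted p of 0.25 in edgeR, and -0.50 (95% interval -0.99 to -0.02) with SRPIN340. The median gene fell too, by -0.11 with SRPIN340, -0.19 with Endovion, -0.09 with THZ531 and -0.16 with the combination. The changes given for the members include that shift. When edgeR scaled each read class by trimmed mean of M values, no member had an unadjusted p under 0.05 with SRPIN340, Endovion or the combination. With THZ531, 1 member had.

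ATF3 had shares of 10.5% and 12.1% in control cells, 6.63% and 8.08% with SRPIN340, 10.2% and 5.62% with Endovion, 4.41% and 7.81% with THZ531, and 7.07% and 8.11% with the combination. All 8 treated libraries were lower than both control libraries. In conversions per 1000 covered T positions, however, Endovion replicate 1 (5.75), THZ531 replicate 2 (4.59) and combination replicate 2 (5.11) exceeded both control libraries (4.09 and 4.33). The largest estimate for the share was -1.03 with THZ531 (95% interval -1.84 to -0.22, adjusted p = 0.39). JUNB had shares from 12.2% to 24.5%, with overlap between control cells and each treatment with SRPIN340 or THZ531 alone, and with both Endovion groups below both control libraries. JUND stayed between 3.44% and 4.57%. No member's share was called in any of the 5 comparisons by edgeR, where between 0 and 1 member had an unadjusted p under 0.05. Over all genes edgeR called 0.0603% with SRPIN340, 0.271% with Endovion, 0.0905% with THZ531 and 0.804% with the combination. Between the combination and THZ531 alone it called 0.0%. On conversions per covered T, limma called 0 of 9941 genes in every comparison, which says nothing about the members in particular. JUN in control replicate 2 had 13.1 conversions per 1000 covered T positions against 3.06 to 6.57 in the other libraries, with a share of T>C reads that did not stand apart.

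**Figure D4:**
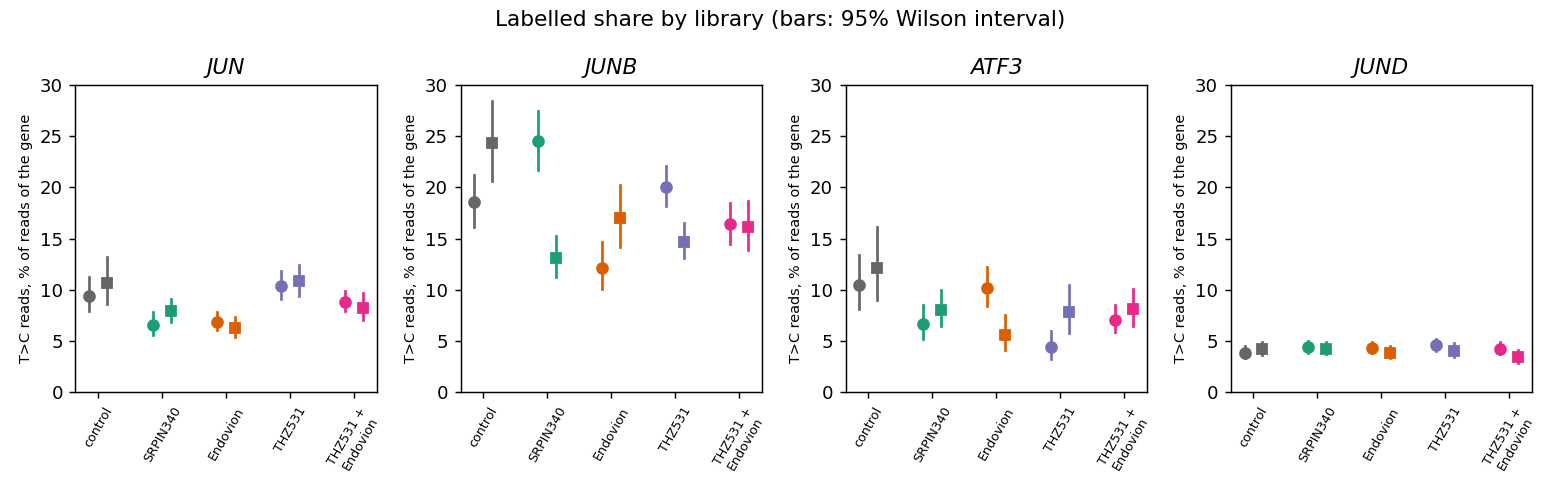
Labelled share (y axis, T>C reads as a percentage of all reads of the gene) of JUN, JUNB, ATF3 and JUND in the 10 libraries by group, with circles for replicate 1, squares for replicate 2 and bars for 95% Wilson intervals, which cover counting error only. The share of JUNB lies between 12.2% and 24.5% and that of JUND between 3.44% and 4.57%.

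The genes around the AP-1 pathway were taken from lists, each tested in the same edgeR fit. The kinases upstream, which phosphorylate JUN, ATF2 and the factors that drive FOS, had 20 of 21 genes tested in nascent RNA. None was called with SRPIN340 (1 at an unadjusted p under 0.05 and none by DESeq2), 1 rose with Endovion, 3 rose with THZ531, and 2 rose and 1 fell with the combination, with list medians between -0.12 and 0.21 against medians of all genes between -0.02 and -0.01. Of all genes, 0.845%, 2.04%, 3.86% and 4.61% were called up in nascent RNA in the order SRPIN340, Endovion, THZ531 and combination. With the combination 3.49% were called down. MAP2K1, a kinase of the ERK branch, was read 13 and 11 times with a conversion in control cells, 22 and 48 with SRPIN340, 61 and 42 with Endovion, 40 and 46 with THZ531, and 55 and 52 with the combination. Its log2 fold change was 2.34 (SE 0.45) with Endovion, 2.04 (SE 0.46) with THZ531 and 2.50 (SE 0.45) with the combination (adjusted p = 0.00052, 0.0018 and 8.0e-05). MAP2K3, a kinase of the p38 branch, rose by 1.20 (SE 0.30, adjusted p = 0.0063) with THZ531 and by 1.42 (SE 0.30, adjusted p = 0.00085) with the combination. MAP3K5, a stress-activated kinase, fell with the combination, where it had 1 and 3 T>C reads against 33 and 13 without drug (adjusted p = 0.03; not called by DESeq2). In total RNA 1, 2, 4 and 8 of 21 kinases rose in the order SRPIN340, Endovion, THZ531 and combination, beside 1.82%, 8.9%, 16.6% and 16.6% of all genes. MAP2K3 rose in all of them. MAP2K7, MAP3K11 and MAP3K5 fell with THZ531 and with the combination, where 14.1% and 12.4% of all genes were called down.

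Of 16 other immediate early genes, 11 were tested in nascent RNA. None was called with SRPIN340 or Endovion (2 and 1 at an unadjusted p under 0.05, none by DESeq2), and 3 rose with THZ531 and 3 with the combination (1 and 2 by DESeq2), with list medians of 0.25, 0.23, 1.02 and 1.06 in the order SRPIN340, Endovion, THZ531 and combination. The shares of all genes called up in nascent RNA were 0.845%, 2.04%, 3.86% and 4.61% in that order. KLF10, a zinc finger repressor, counted 65 and 58 T>C reads in the control libraries, 103 and 112 with THZ531, and 108 and 94 with the combination. Its log2 fold changes were 1.02 (SE 0.31, adjusted p = 0.029) and 1.06 (SE 0.31, adjusted p = 0.021). IER2 was called with THZ531 (1.18, SE 0.36, adjusted p = 0.031) and EGR1, a zinc finger activator induced beside FOS, with the combination (1.48, SE 0.42, adjusted p = 0.022), and the third gene in each treatment was IER5. In total RNA, 3, 4, 8 and 6 of 14 rose in that order and none fell, beside 1.82%, 8.9%, 16.6% and 16.6% of all genes. None of the 4 tested genes among SRF and its ternary complex partners was called in nascent RNA in any treatment by edgeR or DESeq2, and 1 had an unadjusted p under 0.05 with THZ531 and 1 with the combination.

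The phosphatases that switch these kinases off had 6 of 9 genes tested in nascent RNA. DUSP16, which acts on JNK, fell with THZ531 by 1.09 (SE 0.34, adjusted p = 0.036; not called by DESeq2) on the log2 scale, and DUSP6, which acts on ERK, rose with the combination by 1.24 (SE 0.37, adjusted p = 0.023). In total RNA 3, 1, 4 and 4 of 8 phosphatases rose in the order SRPIN340, Endovion, THZ531 and combination, beside 1.82%, 8.9%, 16.6% and 16.6% of all genes. DUSP6 rose in all of them. DUSP16 fell with THZ531 and with the combination, where 14.1% and 12.4% of all genes were called down. Among 12 tested bZIP partners, CREB1, the cyclic AMP response factor, fell with both THZ531 treatments, from 164 and 187 T>C reads in the control libraries to 60 and 30 with THZ531 and to 55 and 48 with the combination (log2 fold changes -1.85 and -1.44, adjusted p = 3.0e-06 and 0.00014). In total RNA 2, 4, 6 and 6 of 14 partners rose in the order SRPIN340, Endovion, THZ531 and combination, beside 1.82%, 8.9%, 16.6% and 16.6% of all genes. MAFG, a small MAF protein, rose in each, and JDP2, a repressor of AP-1, rose with the combination. The shares of all genes called down in nascent RNA were 0.191% with SRPIN340, 0.623% with Endovion, 3.6% with THZ531 and 3.49% with the combination. Those called up were 0.845%, 2.04%, 3.86% and 4.61%.

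A list of stress response genes around ATF3, some of them its regulators or partners and others not, was tested in full, 14 of 14. In nascent RNA 3 rose with SRPIN340, 2 with Endovion, 1 with THZ531 and 3 with the combination, and none fell. Of all genes, 0.845%, 2.04%, 3.86% and 4.61% were called up in that order. The list medians were 0.16, 0.45, -0.05 and 0.34. CHAC1, a glutathione-degrading target of ATF4, counted 43 and 25 T>C reads in the control libraries, 107 and 122 with SRPIN340, 105 and 89 with Endovion, 26 and 6 with THZ531, and 68 and 56 with the combination. It was called with SRPIN340 (1.62, SE 0.33, adjusted p = 0.0027), Endovion (1.78, SE 0.34, adjusted p = 0.00039) and the combination (1.23, SE 0.35, adjusted p = 0.016). Scaled to library depth, both THZ531 libraries were lower than both control libraries. SESN2, a stress-induced regulator of mTORC1, rose with the combination by 1.72 (SE 0.27, adjusted p = 6.6e-06), and GADD45A, a growth arrest gene, rose by 1.32 (SE 0.38, adjusted p = 0.023) with THZ531 and by 1.29 (SE 0.39, adjusted p = 0.025) with the combination. DESeq2 called 0 genes of the list with THZ531 and 2 with the combination, without GADD45A. In total RNA 1, 5, 4 and 7 of the 14 rose in the order SRPIN340, Endovion, THZ531 and combination, beside 1.82%, 8.9%, 16.6% and 16.6% of all genes. DDIT3 fell with THZ531, where 14.1% of all genes were called down.

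Of 20 AP-1 target genes, mostly matrix proteases and growth factors, only 7 had enough T>C reads to be tested, and 10 passed in total RNA. VEGFA, an angiogenic growth factor, was the one called against control in nascent RNA, with 75 and 64 T>C reads in the control libraries, 161 and 104 with THZ531, and 165 and 145 with the combination (log2 fold changes 1.08, SE 0.27, and 1.503, SE 0.26, adjusted p = 0.0053 and 5.2e-05). In nascent RNA HMOX1, a stress-induced heme oxygenase, was called up in the combination against Endovion alone. In total RNA HMOX1 fell with Endovion and rose with THZ531, VEGFA rose in all 4 treatments, CCND1, the cyclin D1 gene, fell with THZ531 and with the combination, and HBEGF rose with both. All genes called down in total RNA were 0.143% with SRPIN340, 2.54% with Endovion, 14.1% with THZ531 and 12.4% with the combination. Of the 8 decay factors that act on AU-rich mRNAs, 1 was called in nascent RNA, ZFP36L1, which rose with THZ531. All genes called up in nascent RNA were 3.86% with THZ531 and 4.61% with the combination.

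The genes with nascent patterns most like the members' were taken by Pearson's r of nascent log2 CPM over the 10 libraries, among 4092 or 4093 genes with a mean of at least 50 T>C reads, as a description. They were HNRNPA2B1 (r = 0.95), VDAC1 and ARL6IP1 for JUN, NUDT3 (r = 0.93) and TMEM201 for JUNB, and PSD3 (r = 0.93), GRPEL2 and MT-TL2 for ATF3. For FOS, FOSL2 and JUND the highest were TOMM20 (r = 0.95), SCD (r = 0.89) and TSC22D2 (r = 0.89). The 10 points share 2 libraries a group and their depth.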

How the data were processed

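RNA labelled with 4sU was alkylated and sequenced as single-end 3′ end libraries. SLAM-DUNK was the tool with which the authors aligned reads and tallied conversions. The submitters' processing notes name hg38, Bowtie2 2.3.4.1, SAMtools 1.6 and DESeq2 1.38.2. The deposited values used are raw counts for each 3′ UTR interval of all reads, of T>C reads, of conversions and of the T bases that reads cover. The deposited conversion rate, a fraction, and the read CPM, held as a score, were not used. The counting of molecular identifiers, strand and the masking of variants are not given in the sources used here.

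Of 104653 intervals, 92826 matched GENCODE v44 and the 3.53% of T>C reads on others were left out. Where intervals overlapped within a gene, only the most read was retained, leaving 57382 intervals in 31015 genes. The T content of all 57382 equalled hg38.

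Nascent and total counts were fitted by edgeR 4.0.16 under R 4.3.3 (TMM scaling, filterByExpr with a minimum count of 10, robust quasi-likelihood fit of group means and the interaction of THZ531 and Endovion over all 10 libraries, 5 residual degrees of freedom) and called at an adjusted p under 0.05. The labelled share was tested as treatment by read class blocking on library. As alternatives, DESeq2 1.42.0 and limma 3.58.1 were run. SEs were taken from the fold change and the F statistic. Wilson 95% intervals and the limit of 3 counts for a count of 0 cover counting error only. From each list the up to 3 largest nascent changes among called genes with a log2 size of at least 1 are named, and other list genes were named after their values were seen. The letters TGACATCA were added later. The members and lists were chosen with earlier results of these data known. Some genes that the rules name are not reported here.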

Additional observations from a re-analysis of the deposited data

How the results depend on the processing

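For the genes reported, the 24 called values were recomputed 391 times under the alternatives, of which 342 stayed past the threshold and all 391 kept their direction. The 55 values not called were recomputed 874 times, and 36 passed and 26 changed sign. The called values include nascent FOS with the combination, which entered only through the combination libraries. Many alternatives drop a library of a group not compared, which changes only the shared spread and the genes tested. The alternatives are thus not independent checks. The plain sum of overlapping intervals left 0 members called in nascent RNA with Endovion and 0 with THZ531, 1 with the combination and 0 in the combination against Endovion, and in total RNA 0 with SRPIN340 and 1 in the combination against Endovion. DESeq2 gave 2 in nascent RNA with the combination, 0 in the combination against Endovion, and in total RNA 2 with SRPIN340 and 1 in the combination against THZ531. Without the low-count filter the combination against THZ531 gave 1 in nascent and 2 in total RNA, and total RNA gave 3 with SRPIN340 and 4 with Endovion. The fit of only the groups compared left 0 in nascent RNA for the combination against Endovion and 0 in total RNA with SRPIN340. The calls over all genes moved too. The plain sum called up 41, 129 and 170 of 10736 genes in nascent RNA with Endovion, THZ531 and the combination. It called up 10 of 15115 in total RNA with SRPIN340. DESeq2 called up 358 of 9946 in nascent RNA with the combination and 790 of 14689 in total RNA with SRPIN340. Without the low-count filter, total RNA gave 1000 with SRPIN340 and 1665 with Endovion, of 21171. The fit of only the groups compared called up 25 of 8636 in nascent RNA for the combination against Endovion. In total RNA with SRPIN340 it called up 3 of 14111. For the combination against Endovion the plain sum called up 1 in nascent and 226 in total RNA, and DESeq2 28 in nascent RNA. Against THZ531, DESeq2 called up 150 in total RNA. The fit without the filter called up 20 of 16618 in nascent and 212 in total RNA there. The cause of these differences was not tested. With 1 library left out at a time, the members called in nascent RNA changed with Endovion, with the combination, and in the combination against THZ531 and against Endovion. They stayed the same in nascent RNA with SRPIN340 and with THZ531, and changed in total RNA in every comparison. The calls over all genes changed as well, so these changes are not read as a result about the members. With 1 library left out, the estimates that changed sign were all of values not called. On the log2 scale of nascent RNA they ranged from -0.13 to 0.52 for JUNB with SRPIN340, for FOSL2 from -1.33 to 0.14 with SRPIN340, -1.51 to 0.46 with Endovion, -0.28 to 1.16 with THZ531 and -0.33 to 0.75 with the combination, from -0.37 to 0.27 for ATF3 with THZ531, from -0.069 to 0.55 for JUND with the combination, and for JUN from -0.19 to 0.73 in the combination against THZ531 and -0.24 to 0.67 against Endovion. In total RNA they ranged from -0.040 to 0.17 for JUND, -0.033 to 0.31 for FOSL2 and -0.014 to 1.04 for FOSB with SRPIN340, from -0.16 to 0.59 for JUNB with Endovion, from -0.52 to 0.028 for FOSL2 with THZ531 and from -0.49 to 0.29 for JUN in the combination against Endovion. For the labelled share they ranged from -0.83 to 0.27 for JUNB with SRPIN340 and from -0.012 to 0.19 for JUN with THZ531. Measured as conversions per covered T, the share of JUN with THZ531 was -0.59, where control replicate 2 stood apart, and that of ATF3 with the combination 0.10.

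Same-numbered libraries of 2 groups deviated together weakly at most, with correlations from -0.07 to 0.06 in nascent and -0.15 to 0.20 in total RNA. The labels do not say whether the numbers mark a shared culture or batch, so pairing is unknown. The reported fits do not pair the libraries. With the replicate block the members called in nascent RNA were 0, 1, 2 and 4 against control in the order SRPIN340, Endovion, THZ531 and combination. Of all 9946 genes, 86, 214, 403 and 469 were called up. The 4 members include FOS, which entered only through the combination libraries. In total RNA 1, 3, 5 and 6 members were called, beside 90, 1161, 2350 and 2398 of 14689 genes called up. The combination against THZ531 gave 1 member (ATF3), beside 41 genes called up. Against Endovion it gave 2 (ATF3 and FOSB), beside 312. Low T>C counts limit FOS, FOSB, FOSL1 and FOSL2 in nascent RNA.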
